A study of Mus musculus with 12 samples.

Results

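Nuclear receptors are transcription factors that small lipid-soluble ligands switch on or off. Pol II, the enzyme that transcribes protein-coding genes, was followed here at a list of 10 mouse nuclear receptor genes of the intestinal lining, chosen by name and without HNF4A and HNF4G, the nuclear receptors that the study deleted. Of the 10 genes, 8 were among the 6429 genes of both comparison tables that the authors deposited: Rxra, Ppara, Ppard, Nr1h3, Nr1h4, Nr1i2, Nr1i3 and Vdr. Pparg and Nr5a2 were not among them, and no Pol II value is given for these 2 genes. All 10 genes had counting windows in the authors' window files, with 24 transcripts in all.

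Pol II binding was measured by ChIP-seq, the sequencing of immunoprecipitated chromatin, in epithelium of the duodenum from adult mice. The labels list 3 Pol II libraries for each of 3 groups and 1 input library (sheared chromatin without immunoprecipitation) for each group. The first group is WT villus, from mice of WT genotype given oil vehicle. The second is WT crypt, from WT mice given the same vehicle. The third is villus of mice of genotype Hnf4αγ DKO, a double knockout of HNF4A and HNF4G, given tamoxifen at 50 mg/kg per day on 2 days and killed 1 day after the last dose. Epithelium was freed in 3 mM EDTA for 35 minutes from WT tissue and for 25 minutes from mutant tissue, and a filter held back villi and let crypts through. The effects of genotype, tamoxifen and time in EDTA cannot be told apart in this design. The sources used here name no driver of the tamoxifen-inducible deletion.

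The receptors listed here act mostly as pairs. RXRA, encoded by Rxra, is the shared partner that binds DNA together with the PPARs, LXRA (Nr1h3), FXR (Nr1h4), PXR (Nr1i2), CAR (Nr1i3) and VDR, while LRH-1 (Nr5a2) binds DNA alone. In the enterocyte, the absorptive cell of the villus, PPARs respond to fatty acids, LXRs to oxidised cholesterol, FXR to bile acids, PXR and CAR to foreign compounds and VDR to active vitamin D. HNF4 proteins bind DNA as dimers of their own kind, at sites that resemble those of the RXR pairs.

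Values were read from the authors' deposited tables, which hold for each gene a mean Pol II signal over all libraries (normalised counts), the fold change on the log2 scale, the standard error (SE) of that value and a DESeq2 adjusted p. The mean signal of all genes ran from 13.1 to 6634, and that of the 8 receptors from 74.7 to 1239. No value per library could be matched to a sample, so the depth of single libraries is unknown. The level of each group was rebuilt from the mean signal and both fold changes, on the assumptions that groups were equal in size and that fold changes were not shrunk. These levels carry no SD, are in size-factor-normalised counts and are not divided by gene length, so they are compared between groups and not between genes. A gene was called at an adjusted p under 0.05, errors after ± are SE, and 95% intervals are normal intervals from that SE. That the groups hold different animals is not stated, and the p-values measure the spread between these libraries only.

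The deleted genes served to check the labels. Values below are log2 fold changes, positive where WT villus is higher. By the authors' deposited table Hnf4a, at -0.54 ± 0.14 (adjusted p 4.84e-04), and Hnf4g, at -1.45 ± 0.22 (adjusted p 7.81e-10), both had more Pol II signal in villi labelled DKO than in WT villi. A loss of signal was thus not seen at either gene. Which part of each gene is deleted is not given in the sources used here, so these values may not bear on the label. The group is called labelled-DKO throughout, and each direction between genotypes rests on the table's name. The directions of both tables were also checked on their standard errors, which grow where counts are low. Counting noise at the rebuilt levels explained 90.1% of the sum of squares of the difference between the squared standard errors with signs as named, and 51.6% or less with either or both signs reversed. Of 20 enterocyte marker genes 19 were tested, and all 19 were called higher in WT villus than in WT crypt and higher in WT villus than in labelled-DKO villus. Among all genes 18.6% and 22.4% were called so. The summed rebuilt level of the 19 markers was 21855 in WT villus, 8201 in WT crypt and 6451 in labelled-DKO villus. Genes with high signal weigh most in these sums. In the comparison with WT crypt computed below, 6 of the 19 were called lower in labelled-DKO villus, 1 higher and 12 not called. The shares of all genes there were 7.19% lower and 6.41% higher. Of 11 mesenchyme markers 0 and of 10 immune markers 4 were among the genes tested. In tissue of mixed cells, fewer cells of a type and less Pol II per cell cannot be told apart.

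The promoters of 4 receptors are printed because these genes had the largest changes between the genotypes, Nr1i2 and Rxra downward and Ppara and Nr1h4 upward in labelled-DKO villus. The sequences are from RefSeq, build GRCm38.p6, 5′ to 3′ on the gene's strand, with 250 bases before and 50 after the start site. Capitals mark AGGTCA, the half-site that many nuclear receptors bind, and GGGCGG, the GC box bound by SP1-type factors, on either strand.
Nr1i2 (chr16:38294775-38295074, minus strand): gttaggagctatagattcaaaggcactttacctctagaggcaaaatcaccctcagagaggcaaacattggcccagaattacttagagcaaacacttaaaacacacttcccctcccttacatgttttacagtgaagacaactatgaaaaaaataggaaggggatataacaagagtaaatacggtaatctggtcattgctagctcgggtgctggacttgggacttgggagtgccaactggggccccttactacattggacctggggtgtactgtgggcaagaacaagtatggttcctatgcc
Rxra, upstream start (chr2:27676951-27677250, plus strand): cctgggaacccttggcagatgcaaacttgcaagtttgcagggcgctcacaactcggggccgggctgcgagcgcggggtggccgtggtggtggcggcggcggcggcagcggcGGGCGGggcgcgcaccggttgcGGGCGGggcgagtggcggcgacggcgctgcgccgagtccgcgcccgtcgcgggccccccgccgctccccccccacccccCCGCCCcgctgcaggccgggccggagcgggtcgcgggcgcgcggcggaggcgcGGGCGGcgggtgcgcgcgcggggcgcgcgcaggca
Rxra, downstream start (chr2:27709042-27709341, plus strand): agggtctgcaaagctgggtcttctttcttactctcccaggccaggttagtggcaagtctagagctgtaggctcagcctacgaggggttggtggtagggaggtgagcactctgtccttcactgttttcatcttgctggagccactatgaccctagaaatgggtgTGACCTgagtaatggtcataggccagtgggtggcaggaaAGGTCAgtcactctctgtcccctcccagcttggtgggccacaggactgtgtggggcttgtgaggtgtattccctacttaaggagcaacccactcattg
Ppara (chr15:85735526-85735825, plus strand): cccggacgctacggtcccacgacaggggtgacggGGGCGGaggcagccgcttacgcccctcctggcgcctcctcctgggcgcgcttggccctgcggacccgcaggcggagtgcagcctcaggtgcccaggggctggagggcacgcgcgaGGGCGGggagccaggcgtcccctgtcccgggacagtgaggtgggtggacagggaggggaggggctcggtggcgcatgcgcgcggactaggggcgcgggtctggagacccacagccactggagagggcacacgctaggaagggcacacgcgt
Nr1h4 (chr10:89506609-89506908, minus strand): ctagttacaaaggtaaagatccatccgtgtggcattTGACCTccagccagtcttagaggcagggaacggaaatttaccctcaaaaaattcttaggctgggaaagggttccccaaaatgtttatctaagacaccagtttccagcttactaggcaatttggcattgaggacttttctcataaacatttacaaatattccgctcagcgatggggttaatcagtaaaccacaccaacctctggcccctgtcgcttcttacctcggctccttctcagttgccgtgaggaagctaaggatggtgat
Promoter base composition differed among receptors that moved in the same direction. The upstream Rxra promoter had a GC content of 83.0% and 55 CpG dinucleotides and that of Ppara 74.7% and 30, while the promoter of Nr1i2 had 45.3% and 2, that of Nr1h4 45.7% and 7, and the downstream Rxra promoter 54.3% and 1. Over 32851 RefSeq promoters of 300 bases the medians were 52.7% and 7. Among the 10 promoters listed for the 8 receptors, AGGTCA was found in 2, those of Nr1h4 and the downstream Rxra start, against 16.3% of all promoters. GGGCGG was found in 4, those of Ppara, Ppard, Vdr and the upstream Rxra start, against 35.7% of all promoters. CAAAGTC, part of the motif that HNF4 factors prefer, was found in none of the 10 and in 4.44% of all promoters, and TATAAA in none and in 13.6%. A direct repeat of AGGTCA with 1 base between, the kind of site that PPAR and RXR pairs bind, was found in none of the 10 and in 0.0396% of all promoters. The window files held more starts than the promoters listed here at Rxra (3), Ppara (2) and Nr1h4 (2). Some starts of these 3 genes were thus not searched, and the printed starts were not matched to those windows. Both strands were searched without mismatches. These windows are short, and enhancers were not analysed here.

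All 8 receptors differed between WT and labelled-DKO villus, in opposite directions. The authors' deposited table called 6 receptors higher in WT villus (Nr1i2, Rxra, Ppard, Vdr, Nr1i3 and Nr1h3), where 22.4% of all 6429 genes were called, and 2 higher in labelled-DKO villus (Ppara and Nr1h4), where 29.5% of all genes were. In either direction 51.9% of all genes were called. The median between the genotypes was 0.58 for the 8 receptors and -0.08 for all genes, with a range among the receptors of -0.85 to 1.09. Villus and crypt differed less. For WT villus against WT crypt the authors' deposited table called 3 receptors (Ppard, Vdr and Nr1i3) and 37.4% of all genes. These 3 were higher in villus, where 18.6% of all genes were called, and 0 were higher in crypt, where 18.8% were, by DESeq2's Wald test. At an unadjusted p under 0.05, 6 of the 8 passed, with Rxra and Nr1i2 higher in villus and Ppara higher in crypt beside those called. The share of all genes at that unadjusted threshold was not computed, so this count has no background to be read against. The fold changes of the receptors in that table had a range of -0.22 to 0.36 and a median of 0.26, against -0.04 for all genes. Both tables share the WT villus libraries. The 19 enterocyte markers were lower in labelled-DKO villus together with the 6 receptors called toward WT, and their part in these results was not tested.

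**Figure D1:**
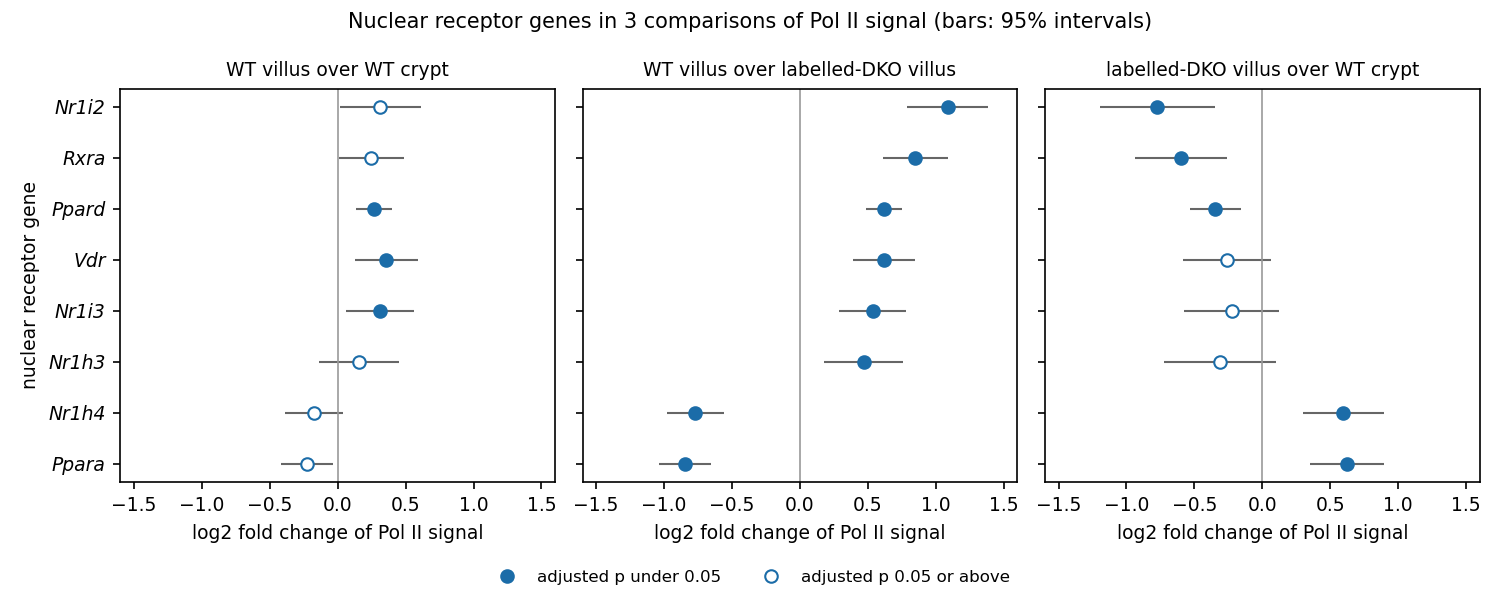
Log2 fold change of Pol II signal (x axis) of the 8 nuclear receptor genes (y axis) in WT villus over WT crypt, WT villus over labelled-DKO villus and labelled-DKO villus over WT crypt, with bars for 95% intervals and filled points for an adjusted p under 0.05. Between the genotypes all 8 points are filled, with Ppara and Nr1h4 on the side of labelled-DKO villus, and between villus and crypt 3 are filled.

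Rxra, the gene of the common partner, had a rebuilt level of 709 in WT villus, 596 in WT crypt and 393 in labelled-DKO villus. Between the genotypes the authors' deposited table gave Rxra 0.85 ± 0.12 (adjusted p 4.73e-11), a 1.80-fold higher signal in WT villus. Its value for villus over crypt, from the authors' deposited table, was 0.25 ± 0.12 and did not pass (adjusted p 0.0958). Relative to the median of all genes the villus value was 0.29 with an adjusted p of 0.0489, so the call depended on the scaling. The window files listed 3 Rxra transcripts with 3 different starts. Rxrb, a second RXR gene, gave 0.42 ± 0.23 between the genotypes (adjusted p 0.124) in the authors' deposited table, and Rxrg was not among the genes tested.

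Ppara and Ppard, which encode fatty acid receptors, moved in opposite directions. Ppara, a driver of fatty acid oxidation and ketone production, had a rebuilt level of 423 in WT villus, 495 in WT crypt and 762 in labelled-DKO villus. Between the genotypes Ppara gave -0.85 ± 0.10 (adjusted p 7.83e-17) in the authors' deposited table, a 1.80-fold higher signal in labelled-DKO villus. Ppard, the more widely expressed isotype, had a rebuilt level of 680 in WT villus, 563 in WT crypt and 443 in labelled-DKO villus. For Ppard the genotype value in the authors' deposited table was 0.62 ± 0.07 (adjusted p 1.51e-18), a 1.53-fold higher signal in WT. The rebuilt level of Ppard was thus above that of crypt in WT villus and below it in labelled-DKO villus, while that of Ppara was the reverse. Between villus and crypt the authors' deposited table called Ppard, at 0.27 ± 0.07 (adjusted p 3.70e-04), and gave Ppara -0.22 ± 0.10 (adjusted p 0.0590), which did not pass. Ppara passed the threshold, as higher in crypt, when only genes with a mean signal of at least 100 were tested, with an adjusted p of 0.0491.

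Nr1h4 encodes FXR, the bile acid receptor that induces the hormone FGF15 and the bile acid exporters of the gut. Its rebuilt level was 403 in WT villus, 455 in WT crypt and 688 in labelled-DKO villus. The genotype value of Nr1h4 in the authors' deposited table was -0.77 ± 0.11 (adjusted p 7.27e-12), a 1.70-fold higher signal in labelled-DKO villus. Between villus and crypt the authors' deposited table gave -0.17 ± 0.11 (adjusted p 0.205), with a 95% interval of -0.39 to 0.04. Nr1h3 encodes LXRA, which raises cholesterol export. It had a rebuilt level of 129 in WT villus, 115 in WT crypt and 92.9 in labelled-DKO villus. Of the receptors in the authors' deposited table Nr1h3 had the smallest absolute value between the genotypes, at 0.47 ± 0.15 (adjusted p 0.00450), and 0.16 ± 0.15 between villus and crypt (adjusted p 0.442). Its related gene Nr1h2, which encodes LXRB, gave 0.27 ± 0.12 between the genotypes (adjusted p 0.0526) in the authors' deposited table.

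Nr1i2 encodes PXR, a sensor of drugs and other foreign compounds that induces enzymes such as CYP3A. Its rebuilt level was 558 in WT villus, 449 in WT crypt and 263 in labelled-DKO villus. The authors' deposited table gave Nr1i2 the largest absolute change of the 8 receptors between the genotypes, at 1.09 ± 0.15 (adjusted p 1.41e-11), a 2.12-fold higher signal in WT villus. From the highest value down, this was rank 350 of the 6429 genes. Between villus and crypt the authors' deposited table gave 0.31 ± 0.15 for Nr1i2, which did not pass (adjusted p 0.0907).

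Nr1i3 encodes CAR, a related sensor that induces CYP2B enzymes. It had a rebuilt level of 89.8 in WT villus, 72.5 in WT crypt and 61.9 in labelled-DKO villus. By the authors' deposited tables Nr1i3 was higher in WT villus than in labelled-DKO villus, at 0.54 ± 0.13 (adjusted p 9.36e-05), and higher in villus than in crypt, at 0.31 ± 0.13 (adjusted p 0.0430). The last 1043 bases of the Nr1i3 gene body window also lie in the body window of Tomm40l, a gene for a mitochondrial import channel on the opposite strand. The counting recorded no use of strand and assigned a read pair to every window it overlapped. The authors' deposited tables gave Tomm40l 2.03 ± 0.14 between the genotypes and 0.67 ± 0.14 for villus over crypt, both larger than the values at Nr1i3, and the part of shared reads in the result at Nr1i3 was not tested. Vdr encodes the vitamin D receptor, which drives calcium uptake in the duodenum. Its rebuilt level was 1529 in WT villus, 1192 in WT crypt and 997 in labelled-DKO villus. Vdr was, by the authors' deposited tables, higher in WT villus than in labelled-DKO villus, at 0.62 ± 0.12 (adjusted p 8.77e-07), and higher in villus than in crypt, at 0.36 ± 0.12 (adjusted p 0.00822).

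**Figure D2:**
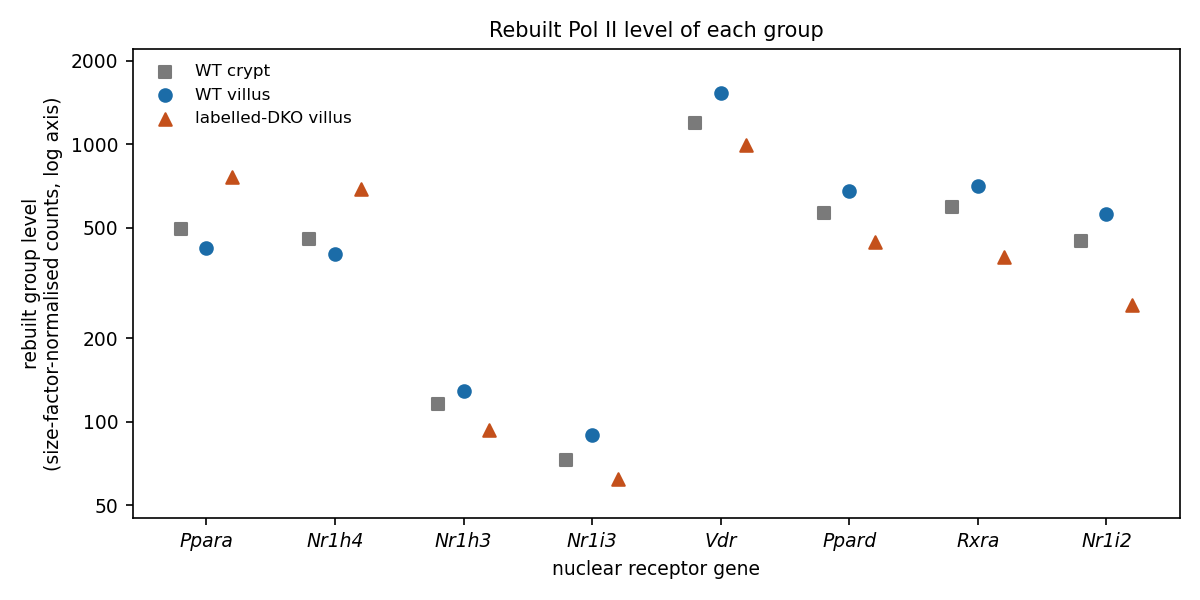
Rebuilt Pol II level (y axis, size-factor-normalised counts on a log axis) of the 8 nuclear receptor genes (x axis) in WT crypt, WT villus and labelled-DKO villus, each point the level rebuilt for a group, with no error. Labelled-DKO villus is lowest at 6 genes and highest at Ppara and Nr1h4, with 762 and 688.

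Labelled-DKO villus was then set against WT crypt, to ask whether the receptors took crypt levels or moved beyond them. This comparison was computed here by subtracting one deposited fold change from the other, so that the shared WT villus term cancels, and was given the largest SE that the difference can have if library errors are independent. Of the 8 receptors 5 were called, where 13.6% of all genes were. Ppara and Nr1h4 were higher in labelled-DKO villus than in crypt, where 6.41% of all genes were, with log2 fold changes of 0.62 ± 0.14 (adjusted p 1.91e-04) and 0.60 ± 0.15 (adjusted p 0.00151). Nr1i2, Rxra and Ppard were lower in labelled-DKO villus than in crypt, where 7.19% of all genes were, with -0.77 ± 0.22 (adjusted p 0.00461), -0.60 ± 0.17 (adjusted p 0.00655) and -0.35 ± 0.10 (adjusted p 0.00407). These 5 calls remained at an adjusted p under 0.01. Vdr, Nr1i3 and Nr1h3 did not pass, at -0.26 ± 0.17 with a 95% interval of -0.58 to 0.07, at -0.23 ± 0.18 with an interval of -0.58 to 0.13, and at -0.31 ± 0.21 with an interval of -0.73 to 0.10. The order of groups was thus labelled-DKO villus, crypt and WT villus from lowest to highest at 6 genes, and the reverse at Ppara and Nr1h4. Neighbours in that order were told apart on both sides only at Ppard. At Ppara, Nr1h4, Nr1i2 and Rxra the neighbours WT villus and crypt did not pass the test, and at Vdr and Nr1i3 the neighbours crypt and labelled-DKO villus did not. At Nr1h3 neither pair of neighbours passed.

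Other nuclear receptors were read from a list of 37, of which 13 were tested. Between the genotypes the authors' deposited table called 6 of these higher in WT villus and 2 in labelled-DKO villus, with a list median of 0.31 against -0.08 for all genes. Such calls were made for 22.4% and 29.5% of all genes. Centred on the median of all genes the calls of this list were 7 and 1. The largest values in the authors' deposited table were at Nr1d1, a repressor of the circadian clock, with 1.41 ± 0.25 (adjusted p 1.04e-07), Thra, a thyroid hormone receptor, with 1.06 ± 0.16 (adjusted p 3.57e-10), and Nr2f6, an orphan receptor, with 0.97 ± 0.18 (adjusted p 8.10e-07). Esrra, a regulator of mitochondrial genes, gave 0.56 ± 0.15 and Rara, a retinoic acid receptor, 0.38 ± 0.09 in the authors' deposited table. The 2 receptors called toward labelled-DKO villus were Nr3c2, the mineralocorticoid receptor, at -0.34 ± 0.11 and Nr2c2, an orphan receptor, at -0.27 ± 0.09 in the authors' deposited table. Between villus and crypt 4 of the 13 were called higher in villus (Nr1d1, Thra, Nr2f6 and Nr1d2) and 1, Nr2c2, higher in crypt in the authors' deposited table. The shares of all genes there were 18.6% and 18.8%. For labelled-DKO villus against crypt 0 of the 13 were called in the normal test with the largest SE, and 1 passed at an unadjusted p under 0.05. In that comparison 13.6% of all genes were called at an adjusted p under 0.05, and the share at the unadjusted threshold was not computed.

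Coregulators are the proteins through which nuclear receptors switch genes on or off. Their counts stand beside 22.4% of all genes called toward WT villus and 29.5% toward labelled-DKO villus. Of 13 coactivators 8 were tested, and the authors' deposited table called 5 in favour of labelled-DKO villus and 0 in favour of WT, with a median of -0.37. The 5 were Ncoa3, a member of the p160 coactivator family, at -0.57 ± 0.06 (adjusted p 9.77e-22), the Mediator subunit gene Med1 at -0.50 ± 0.08, the methyltransferase gene Carm1 at -0.39 ± 0.06, and the acetyltransferase genes Crebbp at -0.39 ± 0.08 and Ep300 at -0.36 ± 0.08. Ppargc1a and Ppargc1b, which encode coactivators of mitochondrial genes, gave 0.10 ± 0.12 (adjusted p 0.471) and 0.11 ± 0.09 (adjusted p 0.313) between the genotypes in the authors' deposited table. Ppargc1a was called higher in villus than in crypt there, at 0.30 ± 0.12, and Ppargc1b higher in crypt, at -0.29 ± 0.09. Of 8 corepressor genes 5 were tested, and 3 had a call toward labelled-DKO villus and 0 toward WT in the authors' deposited table: Gps2 at -0.81 ± 0.17, Tbl1xr1 at -0.37 ± 0.08 and Hdac3 at -0.34 ± 0.08, all parts of one corepressor complex. After centring 3 were called toward labelled-DKO villus and 1 toward WT. Between the genotypes the coregulator genes called in the deposited table thus moved in the direction of Ppara and Nr1h4. Between villus and crypt 5 of 8 coactivators and 3 of 5 corepressors were called higher in crypt, where 18.8% of all genes were. Centred on the median of all genes, 1 corepressor was called higher in crypt. Ncoa3 was called higher in labelled-DKO villus than in crypt, at 0.38 ± 0.08, and Ppargc1b lower, at -0.40 ± 0.13. Of the corepressors 0 were called there, where 13.6% of all genes were.

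Known target genes were read by receptor. Between the genotypes 29.5% of all genes were called toward labelled-DKO villus and 22.4% toward WT villus. Of 28 PPAR targets 17 were tested, of which the authors' deposited table called 10 higher in labelled-DKO villus and 5 higher in WT villus, with a median of -0.44. After centring on the median of all genes these calls were 8 and 5. Higher in labelled-DKO villus in the authors' deposited table were Pdk4, a brake on glucose oxidation, at -1.75 ± 0.25 (adjusted p 5.23e-11), Cpt1a, the gatekeeper of fatty acid entry into mitochondria, at -1.53 ± 0.08 (adjusted p 1.40e-72), and Plin2, a lipid droplet coat protein, at -1.09 ± 0.17 (adjusted p 4.70e-10). Higher in WT villus there were Fabp2, a fatty acid carrier of the enterocyte, at 2.46 ± 0.45, Creb3l3, a factor of lipid metabolism, at 1.23 ± 0.11, and Acsl5, Fabp1 and Ehhadh, at 0.27 to 0.71. The list therefore had calls in both directions, and Fabp1 and Fabp2 are also in the enterocyte marker list. Against crypt 9 of the 17 had calls toward labelled-DKO villus and 0 toward crypt, where 6.41% and 7.19% of all genes did. The 8 not called there included values on both sides, from -0.80 at Fabp2 to 0.66 at Ucp2.

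The next lists stand beside 22.4% of all genes called toward WT villus and 29.5% toward labelled-DKO villus. Of 22 PXR and CAR targets 19 were tested, with 14 calls toward WT villus and 3 toward labelled-DKO villus in the authors' deposited table and a median of 1.14. The largest were the drug-metabolising genes Cyp3a25 at 3.53 ± 0.11, Cyp3a11 at 3.45 ± 0.09, Gstm3 at 3.21 ± 0.11 and Cyp2b10 at 1.98 ± 0.11, and the export pump gene Abcc2 at 2.80 ± 0.27, all from the authors' deposited table. The 3 called toward labelled-DKO villus in the authors' deposited table were Gsta4 at -1.58 ± 0.45, Por, which supplies electrons to cytochromes P450, at -0.42 ± 0.19 and Ugt1a6a at -0.35 ± 0.15. Por and Ugt1a6a lost their calls at an adjusted p under 0.01 and when values were centred on the median of all genes, which left 14 and 1. Cyp3a, Gsta, Gstm and Ugt1a genes have close paralogs, and how their reads were shared is uncertain. Between villus and crypt 12 of the 19 were called higher in villus and 0 higher in crypt in the authors' deposited table. The shares of all genes there were 18.6% and 18.8%. Of 12 VDR targets 5 were tested, with 3 calls toward WT villus in the authors' deposited table: Cyp3a11, the metal transporter gene Slc30a10 at 2.03 ± 0.13 and S100g, the calcium carrier calbindin, at 1.33 ± 0.28. The other two VDR targets were not called between the genotypes in the authors' deposited table: the phosphate transporter gene Slc34a2 gave -0.57 ± 0.44 (adjusted p 0.280) and the calcium pump gene Atp2b1 0.07 ± 0.16 (adjusted p 0.730). Slc34a2 was called higher in labelled-DKO villus than in crypt, at 1.79 ± 0.63 (adjusted p 0.0363), while Slc30a10 and Cyp3a11 were called lower. Of 12 LXR targets 6 were tested, and the authors' deposited table called 3 higher in WT villus: the sterol export genes Abcg8 at 1.63 ± 0.19 and Abcg5 at 1.45 ± 0.11, and Nr1h3 itself, which is a target of its own product and is counted in both lists. Apoe, a lipid carrier gene, was called higher in labelled-DKO villus at -0.42 ± 0.19 (adjusted p 0.0454) in the authors' deposited table, and this call was lost at an adjusted p under 0.01 and after centring, which left 3 and 0. Srebf1 at -0.23 ± 0.11 and Lpcat3 at 0.09 ± 0.09 were not called in the authors' deposited table, and the median of the LXR list was 0.28. Against crypt 0 of the 6 LXR targets were called, where 13.6% of all genes were.

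Nr1h4 was higher in labelled-DKO villus, and the FXR targets that were called were all higher in WT villus. Among all genes 22.4% were called toward WT villus and 29.5% toward labelled-DKO villus. Of 10 FXR targets 6 were tested, and the authors' deposited table called 5 toward WT and 0 toward labelled-DKO villus, with a median of 1.13. They included both subunits of the bile acid exporter, Slc51b at 2.02 ± 0.11 (adjusted p 8.32e-68) and Slc51a at 1.69 ± 0.09 (adjusted p 8.61e-72), in the authors' deposited table. Against crypt 4 of the 6 were called lower in labelled-DKO villus and 0 were called higher, while Nr1h4 was called higher. The shares of all genes there were 7.19% lower and 6.41% higher. The FXR targets not called there were Nr0b2 at 0.41 and Mafg at -0.08. Fgf15 was not among the genes tested, and Nr0b2, which encodes the repressor SHP, gave 0.06 ± 0.27 between the genotypes (adjusted p 0.869) in the authors' deposited table. Abcc2 and Abcc3 stand in both the FXR list and the PXR and CAR list, and Cyp3a11 in both the PXR and CAR list and the VDR list, so these lists are not independent. Over all target lists, the enterocyte markers given above moved with the genes higher in WT villus, and their part in those differences was not tested.

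**Figure D3:**
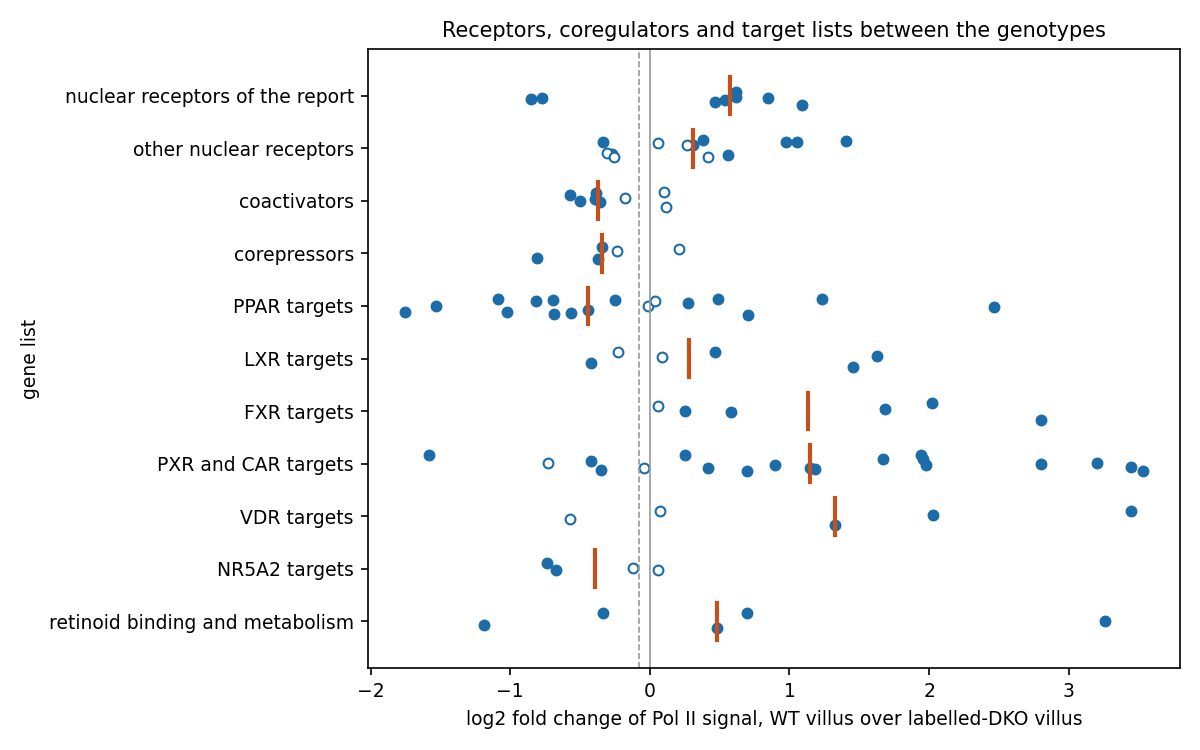
Log2 fold change of WT villus over labelled-DKO villus (x axis) of the tested genes of each list (y axis), with filled points for an adjusted p under 0.05, open points for the others, an upright bar for each list's median, a solid line at 0 and a broken line at the median of all genes, -0.08. The PXR and CAR, FXR and VDR target lists have medians of 1.14, 1.13 and 1.33, and the PPAR targets, coactivators and corepressors have medians of -0.44, -0.37 and -0.34.

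Of 13 genes of retinoid binding and metabolism, whose products handle ligands of RXR and RAR proteins, 5 were tested. The authors' deposited table showed that Rbp2, the retinol carrier of the enterocyte, gave 3.26 ± 0.17 between the genotypes, Aldh1a1, which makes retinoic acid, 0.69 ± 0.08, and Rdh7, a retinol dehydrogenase, 0.48 ± 0.17, all higher in WT villus. Isx, a repressor of vitamin A uptake, gave -1.19 ± 0.13 and Dhrs3, which turns retinal back into retinol, -0.34 ± 0.10, both higher in labelled-DKO villus in the authors' deposited table. Between villus and crypt 1 of the 5, Rbp2, was called in the authors' deposited table, at 1.34 ± 0.16, where 37.4% of all genes were. Of 8 NR5A2 targets 4 were tested, with Ccnd1 and Myc, regulators of growth, called higher in labelled-DKO villus in the authors' deposited table, at -0.74 ± 0.18 and -0.67 ± 0.18. Such calls were made for 29.5% of all genes. Ccnd1 and Myc were also called higher in crypt than in villus in the authors' deposited table, at -0.56 ± 0.19 and -1.06 ± 0.18. Among all genes 18.8% were called higher in crypt.

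Genes with the most similar pattern were found for the 3 receptors called in both tables, as the nearest over the 2 deposited log2 fold changes among the 1843 genes called in both. The comparisons share the WT villus libraries, so nearness over them rests on 3 groups. For Ppard these were Scp2, a sterol carrier protein gene, Tmcc1 and Epb41l4b, with distances of 0.0086 to 0.0157 on the log2 scale. Scp2 gave 0.26 ± 0.07 and 0.61 ± 0.07 in the authors' deposited tables, against 0.27 and 0.62 at Ppard. For Vdr they were Slc50a1, Tmem175 and Phlpp2, with distances of 0.0227 to 0.0326, and for Nr1i3 Mfsd2a, Nos2 and Pex16, with distances of 0.0112 to 0.0264. All of these distances were smaller than the SE of the receptor's own fold changes.

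The windows of the receptors were read from the authors' files, whose build is mm9 per the submitters' processing notes. Each gene is described by the transcript with the longest gene body window. On the plus strand lay Rxra (promoter window chr2:27532621-27533022, body window of 85269 bases), Ppara (chr15:85565894-85566295, 70438 bases), Ppard (chr17:28369599-28370000, 67866 bases), Nr1i3 (chr1:173144001-173144402, 4026 bases) and Pparg (chr6:115310869-115311270, 128601 bases). On the minus strand lay Nr1h4 (chr10:88996066-88996467, 80239 bases), Vdr (chr15:97738426-97738827, 54720 bases), Nr1i2 (chr16:38294609-38295010, 47326 bases), Nr1h3 (chr2:91034972-91035373, 11906 bases) and Nr5a2 (chr1:138856724-138857125, 117715 bases). Several genes had more than 1 start: 4 distinct promoter windows at Pparg, 3 at Rxra, and 2 each at Ppara, Nr1h3, Nr1h4 and Nr5a2, while Ppard, Vdr, Nr1i2 and Nr1i3 had 1.

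Promoter and body windows were laid out differently on the 2 strands. At the 5 plus-strand genes the body window began 48 bases after the promoter window ended. At the 5 minus-strand genes the body window held the whole promoter window and reached 250 bases beyond its upstream edge. A count over the body window of Nr1h4, Vdr, Nr1i2, Nr1h3 or Nr5a2 thus covers the promoter window, and a count over that of Rxra, Ppara, Ppard, Nr1i3 or Pparg does not. Which window stands behind the authors' deposited tables is not stated in them. Both directions between the genotypes occurred on either strand, with Ppara on the plus strand and Nr1h4 on the minus strand higher in labelled-DKO villus. The promoter window of Ppard lay inside the body window of a noncoding transcript on the opposite strand that matched no gene symbol. That body window also shared 40869 of the 67866 bases of the Ppard body window, which held the noncoding transcript's promoter window too. The promoter window of 1810013A23Rik also lay inside the body window of Ppard. Neither the noncoding transcript nor 1810013A23Rik was among the genes tested, and the part of shared reads at Ppard was not tested.

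**Figure D4:**
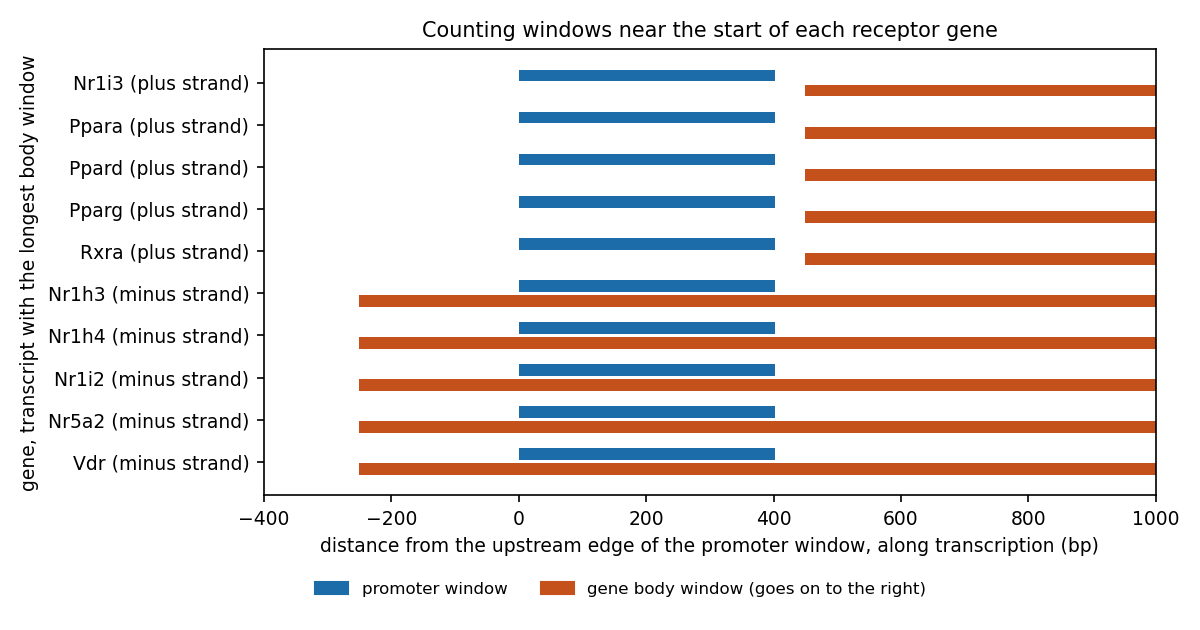
Promoter and gene body counting windows near the start of the 10 receptor genes (y axis), by distance in bp along transcription from the upstream edge of the promoter window (x axis), for the transcript with the longest body window. On the plus strand the body window starts 48 bases after the promoter window, and on the minus strand it holds the promoter window and starts 250 bases upstream of it.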

How the data were processed

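The Pol II libraries were aligned with Bowtie2 2.2.6 to build mm9, and DESeq2 1.36.0 is listed, per the submitters' processing notes. Per the file headers, the authors counted read pairs in windows with featureCounts 2.0.3 at a mapping quality of at least 30, ignoring duplicates and without a strand option. No line names the count columns, so 18 columns of per-library counts matched no sample by name and were not used, and the planned edgeR tests of window counts and of promoter to body balance were not run. From these files came only window positions and lengths. Of 44308 promoter and 41048 body windows, 42877 and 40091 matched a RefSeq symbol by accession.

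The deposited comparison tables hold a mean signal (counts divided by size factors by the authors), a log2 fold change with its SE, a Wald score and p-values, per the file headers. The authors' gene filter, size factors, shrinkage and number of libraries are not given in the sources used here. The deposited score equalled the fold change over its SE to within 1.78e-07, and the deposited adjusted p equalled a Benjamini-Hochberg adjustment over 6429 genes to within 3.76e-07.

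Group levels, the comparison of labelled-DKO villus with crypt (normal p, Benjamini-Hochberg over all genes) and motif counts were computed in Python 3.11.15 with numpy 2.4.6, pandas 2.3.3 and scipy 1.17.1. That comparison was tested on simulated counts for 6429 genes: with the largest SE 91.5% of 200 genes changed by 1 on the log2 scale were recovered, with 0 false calls. With the SE rebuilt from counting noise 98.5% were recovered, with 9 false calls. The receptors' values in that comparison were smaller, from -0.77 to 0.62. The recovery of changes of that size was not tested. Alternatives were an adjusted p under 0.01, a log2 fold change beyond 1, a test against changes up to 0.5, centring on the median, a mean signal of at least 100, and an SE rebuilt from counting noise. Members and lists were chosen with earlier results of these data known. Of each list at most 5 genes called between the genotypes with the largest change were named, plus at most 2 called only between villus and crypt. Rxrb, Rxrg, Nr1h2, Nr0b2, Nr1d2, Nr2c2, Nr3c2, Fgf15, Atp2b1, Ucp2, Acsl5, Fabp1, Ehhadh, Gsta4, Por, Ugt1a6a, Srebf1, Lpcat3, Tomm40l and the marker genes were named outside this rule, after their values were seen. Deposited values are those of the authors' fits, and the depth behind them is unknown. One gene that the naming rule selects is not reported here.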

Additional observations from a re-analysis of the deposited data

How the results depend on the processing

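Centring on the median of all genes was the only setting that altered the fold changes. The medians, -0.04, -0.08 and 0.003, were smaller in size than the value of each of the 8 receptors in that comparison. No direction could therefore turn, so the unchanged directions are no test of the result. The number of receptors called fell where a larger change was required. With a log2 fold change beyond 1 it was 0 for villus over crypt, 1 (Nr1i2) for WT over labelled-DKO villus and 0 for labelled-DKO villus over crypt, where 3, 8 and 5 were called before. In a test against changes up to 0.5 it was 0, 3 (Nr1i2, Rxra and Ppara) and 0. Both settings ask for larger changes by construction. An adjusted p under 0.01, centring and a mean signal of at least 100, where Nr1i3 drops out, left the counts within 1.5 times, as did the rebuilt SE for labelled-DKO villus against crypt, with 5. With the rebuilt SE 1922 of all genes were called there, against 874 with the largest SE. Villus against crypt rested on values near the threshold: an adjusted p under 0.01 lost Nr1i3, centring added Rxra, and a mean signal of at least 100 added Ppara. No paired analysis was possible because single libraries have no values in the comparison tables, and the count columns have no names. Leaving out each replicate, DESeq2 size factors, other filters and DESeq2 on the window counts could for that reason not be run, and no result is checked against the loss of 1 library.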

Other observations

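The layout of the windows seen at the receptors held for all transcripts with both windows. Of 21190 minus-strand transcripts 100% had a body window that contained the promoter window, and of 19858 plus-strand transcripts 0 did. A ratio of promoter to body counts from these windows is therefore not the same quantity on the 2 strands.

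Markers of secretory cells, which share the villus and crypt with enterocytes, were read beside the receptors. Between the genotypes 29.5% of all genes were called toward labelled-DKO villus and 22.4% toward WT villus. Of 12 such genes 8 were tested, and the authors' deposited table called 3 higher in labelled-DKO villus and 0 higher in WT, with a median of -0.07 against -0.08 for all genes. The 3 were Agr2 at -1.06 ± 0.13, Spink4 at -0.81 ± 0.10 and Clca1 at -0.52 ± 0.12, while Muc2, the main mucin, gave 0.15 ± 0.17 (adjusted p 0.470). Of 4 immune markers tested, Cd74 was called higher in WT villus at 1.33 ± 0.24 and Cd68, a macrophage marker, higher in labelled-DKO villus at -1.18 ± 0.23, in the authors' deposited table. Of 12 proliferation markers 3 were tested, and 2 were called higher in labelled-DKO villus there, with a median of -0.62. Of 13 crypt stem and progenitor markers 4 were tested, all 4 called higher in crypt than in villus and 2 with more signal in labelled-DKO than in WT villus in the authors' deposited tables. Among all genes 18.8% were called higher in crypt than in villus.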
